A study of Mus musculus with 18 samples.

Results

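The DCIR and Dectin-2 lectin genes are 5 neighbouring C-type lectin receptor genes of the mouse, Clec4a1, Clec4a2, Clec4a3, Clec4a4 and Clec4n. They were taken by gene name, with the transcripts of each gene summed, and are 5 of 35824 genes in the tables. All 5 were among the 13381 genes left after the filter on low counts. RNA was sequenced from conventional dendritic cells (cDC) sorted from spleens of ADAM10-deficient (KO) and wild-type (WT) C57BL/6 mice. The protease ADAM10 sheds the outer part of surface proteins, Notch receptors among them. The 18 libraries form 6 groups of 3, namely KO CD4+, WT CD4+, KO CD4-, WT CD4-, KO CD8+ and WT CD8+ cells. CD4+ cells and CD4- cells (negative for CD4 and CD8) are both cDC2, CD8+ cells are cDC1, and all were gated as living cells with CD11c and MHC class II. The labels give neither the deletion strategy, nor the cells in which ADAM10 was removed, nor the age of the mice, and do not say whether the 3 libraries of a group came from separate animals.

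C-type lectin receptors sit on myeloid cells and bind sugars of microbes or of the body's own cells. DCIR-type receptors with an immunoreceptor tyrosine-based inhibitory motif (ITIM) in their tail recruit the phosphatases SHP-1 and SHP-2 and dampen activation. Dectin-2 instead pairs with the FcRγ chain and activates Syk and Card9 when it meets fungal mannans. In the spleen the DCIR2 protein, seen by the antibody 33D1, is a classical surface marker of cDC2.

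Totals of estimated counts ran between 12358884 and 19557469 per library. Adam10 was at 41.6 to 45.9 CPM (counts scaled to a fixed library total) in KO and 80.6 to 129.5 CPM in WT CD4+ libraries. It was at 41.7 to 47.5 CPM in KO and 88.3 to 138.4 CPM in WT CD4- libraries, and at 28.7 to 36.4 CPM in KO and 57.0 to 98.97 CPM in WT CD8+ libraries. KO and WT libraries of Adam10 did not overlap in any population. Of the sorted identities, the 8 cDC1 markers summed to between 1155 and 1349 TPM (transcript abundance per length, scaled to a fixed total) in CD8+ libraries and at most 251.1 TPM in any other. The 6 cDC2 markers summed to at least 529.6 TPM in CD4+ and CD4- libraries and at most 137.8 TPM in CD8+ libraries. Single cDC2 markers went both ways between genotypes. Of the 6, 2 were called higher and 1 lower in KO CD4+ cells, where 18.5% and 16.6% of all genes tested were. In KO CD4- cells 2 were called higher and 2 lower, where 14.6% and 11.3% of all genes tested were. Neutrophil markers summed to at most 3.54 TPM in any library. Camp was at 0 in every group but KO CD8+, and Retnlg in every group but WT CD4-.

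The 5 genes lie on the plus strand of chromosome 6 in GRCm38. Clec4a1 (ENSMUSG00000049037.8) spans 122921848 to 122934619, Clec4a3 (ENSMUSG00000043832.13) spans 122952515 to 122969875, and Clec4a4 (ENSMUSG00000059639.2) spans 122990367 to 123024105. Clec4a2 (ENSMUSG00000030148.15) spans 123106428 to 123143999 and Clec4n (ENSMUSG00000023349.14) spans 123229843 to 123247021. Clec4b1 lies between Clec4a4 and Clec4a2, Clec4b2 between Clec4a2 and Clec4n, and Clec4d and Clec4e follow Clec4n.

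Coding sequences of the GENCODE M21 annotation show which members carry the inhibitory motif. The pattern I, L, V or S, any residue, Y, any 2 residues, then L, V or I begins at residue 5 in Clec4a2 and in Clec4a4. It was searched in the first 60 residues. The first 42 coding bases of both genes are shown because Clec4a4 and Clec4a2 are the members with this motif at the start of the tail, with the codons of the pattern in capitals.
Clec4a2, chr6:123123588-123123629, plus strand: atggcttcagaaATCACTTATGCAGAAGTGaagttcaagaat
Clec4a4, chr6:122990367-122990408, plus strand: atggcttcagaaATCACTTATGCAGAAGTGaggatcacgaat
The letters up to and including the capitals are the same in both genes. Clec4a1 has no match in the window. The same pattern also matched at residue 51 of Clec4a3 and at residue 39 of Clec4n, farther from the start of the protein. Whether these 2 matches lie in the tail was not examined, so neither gene is counted as carrying the inhibitory motif.

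The sugar-binding domain differs between members at a tripeptide that is EPN in many mannose-binding lectins of animals. It reads EPN in Clec4a4 and Clec4n, and EPS in Clec4a1, Clec4a2 and Clec4a3. The stretches around it are shown because the pair of ITIM-bearing genes fall on different sides of this split, with the tripeptide's codons in capitals.
Clec4a4, chr6:123023900-123023938, plus strand: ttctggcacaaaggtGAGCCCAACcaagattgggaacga
Clec4n, chr6:123246442-123246480, plus strand: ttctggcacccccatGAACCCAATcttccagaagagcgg
Clec4a1, chr6:122933779-122933817, plus strand: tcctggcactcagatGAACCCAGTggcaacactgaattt
Clec4a2, chr6:123142364-123142402, plus strand: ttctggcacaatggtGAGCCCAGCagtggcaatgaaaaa
Clec4a3, chr6:122969369-122969407, plus strand: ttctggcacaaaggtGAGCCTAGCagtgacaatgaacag
Over the longest complete coding sequences, Clec4a2 and Clec4a4 were the most alike members (85.7% identical bases over 708 aligned), and identity between the other DCIR-type members ran between 72.0% and 75.9%. Clec4n was 60.1% to 62.6% identical to each of the other 4.

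Such likeness bears on how reads are shared out. Of the 59-base windows of Clec4a4 transcripts (59 bases being the read length), 14.6% also occur in Clec4a2, and 5.51% of the windows of Clec4a2 occur in another gene. For Clec4n the share was 0.12%, and Clec4a1 and Clec4a3 share no window with another gene. Values of Clec4a4 and Clec4a2 therefore depend in part on how the authors' estimates divided shared reads.

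Clec4a4, which encodes the inhibitory receptor DCIR2, was lower in KO cells of all 3 populations. KO CD4+ libraries held 23.7, 20.7 and 21.3 TPM, against 135.5, 141.0 and 136.4 TPM in WT CD4+ libraries. KO CD4- libraries held 17.7, 11.7 and 11.4 TPM, against 74.4, 90.3 and 84.2 TPM in WT CD4- libraries. KO CD8+ libraries held 0.204, 0.416 and 0.382 TPM, against 4.96, 3.66 and 5.42 TPM in WT CD8+ libraries. Every KO library lay below every WT library of its population, and the 6 groups, from WT CD4+ at the top to KO CD8+ at the bottom, overlapped with no neighbour in the order. The log2 fold change of KO over WT was -2.56 ± 0.15 in CD4+ cells (standard error, n = 3 libraries per group, edgeR quasi-likelihood test, Benjamini-Hochberg adjusted p 1.86e-09). It was -2.36 ± 0.15 in CD4- cells (adjusted p 2.77e-08) and -3.59 ± 0.31 in CD8+ cells (adjusted p 7.89e-07). The fall in CD8+ cells rests on 3.37 to 6.17 estimated counts in KO libraries, against 46.0 to 63.4 in WT libraries. In these bulk samples fewer cells that make a transcript and less of it per cell cannot be told apart.

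Clec4a2, which encodes the inhibitory receptor DCIR1, did not pass the test in either cDC2 population. KO CD4+ libraries held 63.0, 34.8 and 67.1 TPM, and WT CD4+ libraries 72.6, 82.1 and 84.6 TPM. KO CD4- libraries held 57.0, 43.9 and 50.0 TPM, and WT CD4- libraries 58.8, 86.9 and 71.2 TPM. All KO libraries were below all WT libraries of their population in TPM. In CPM, which is not divided by transcript length, they overlapped in both populations. CD4+ libraries held 37.6 to 59.4 CPM in KO and 53.4 to 66.6 CPM in WT. The log2 fold change was -0.27 ± 0.15 in CD4+ cells (edgeR adjusted p 0.181) and -0.10 ± 0.15 in CD4- cells (edgeR adjusted p 0.691). Without KO CD4+ library 1 the CD4+ value became -0.43 and passed (edgeR adjusted p 0.046). In CD8+ cells, where KO libraries held 1.86, 2.23 and 1.34 TPM and WT libraries 6.12, 4.09 and 3.10 TPM, Clec4a2 fell (log2 -1.04 ± 0.24, edgeR adjusted p 0.00573). KO and WT CD8+ libraries did not overlap.

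Clec4a3, which encodes DCIR3, was higher in KO cDC2. KO CD4+ libraries held 120.3, 108.3 and 124.8 TPM, against 41.1, 43.5 and 44.4 TPM in WT CD4+ libraries. KO CD4- libraries held 107.3, 101.3 and 105.6 TPM, against 56.3, 92.8 and 72.6 TPM in WT CD4- libraries. KO and WT did not overlap in either population, and the WT CD4- libraries were spread more widely than the other cDC2 groups. Clec4a3 rose by log2 1.55 ± 0.19 in CD4+ cells (edgeR adjusted p 8.57e-06) and by 0.92 ± 0.19 in CD4- cells (edgeR adjusted p 0.00184). The call in CD4- cells was lost in limma on log2(TPM + 1), where the value was 0.53 (adjusted p 0.0592). In CD8+ cells the libraries overlapped, with 1.07, 0.463 and 1.20 TPM in KO and 0.903, 1.95 and 0.865 TPM in WT, and the log2 value was 0.04 ± 0.42 (edgeR adjusted p 0.974).

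Clec4a1, which encodes DCIR4, passed the test in neither cDC2 population. KO CD4+ libraries held 63.8, 49.1 and 73.1 TPM and WT CD4+ libraries 62.2, 66.5 and 68.2 TPM. KO CD4- libraries held 58.3, 54.2 and 59.5 TPM and WT CD4- libraries 51.4, 64.5 and 67.1 TPM. KO and WT overlapped in both populations in TPM. In CPM they overlapped in CD4+ cells but not in CD4- cells, where KO libraries held 129.3 to 136.6 CPM and WT libraries 108.4 to 125.6 CPM. Neither difference passed, with log2 values of 0.04 ± 0.13 in CD4+ cells (edgeR adjusted p 0.834) and 0.17 ± 0.13 in CD4- cells (edgeR adjusted p 0.414). On the TPM scale both values were below 0 (-0.10 and -0.08 in limma on log2(TPM + 1)). In CD8+ cells Clec4a1 fell, to 0.435, 0.298 and 0.712 TPM in KO libraries, against 1.52, 1.33 and 1.24 TPM in WT libraries, which did not overlap (log2 -1.30 ± 0.27, edgeR adjusted p 0.00279).

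Clec4n, which encodes the activating receptor Dectin-2, passed the test in no population. KO CD4+ libraries held 22.0, 24.1 and 17.4 TPM and WT CD4+ libraries 38.7, 26.0 and 27.7 TPM. KO CD4- libraries held 21.8, 6.60 and 7.43 TPM and WT CD4- libraries 17.3, 13.9 and 15.9 TPM. In CD4+ cells the KO libraries lay below the WT libraries in TPM but overlapped in CPM (13.2 to 20.2 in KO and 18.7 to 23.1 in WT), whereas in CD4- cells, in TPM, KO library 1 stood above all 3 WT libraries and the other 2 KO libraries below them. The log2 values were -0.44 ± 0.36 in CD4+ cells (edgeR adjusted p 0.387) and -0.56 ± 0.38 in CD4- cells (edgeR adjusted p 0.323). Without KO CD4- library 1 the CD4- value became -1.33 and passed (edgeR adjusted p 0.00982). CD8+ libraries were near the limit of counting, with 1 to 6 estimated counts in KO and 4 to 16 in WT, and WT CD8+ library 3 alone reached 2.77 TPM (log2 -1.09 ± 0.89, edgeR adjusted p 0.473).

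**Figure D1:**
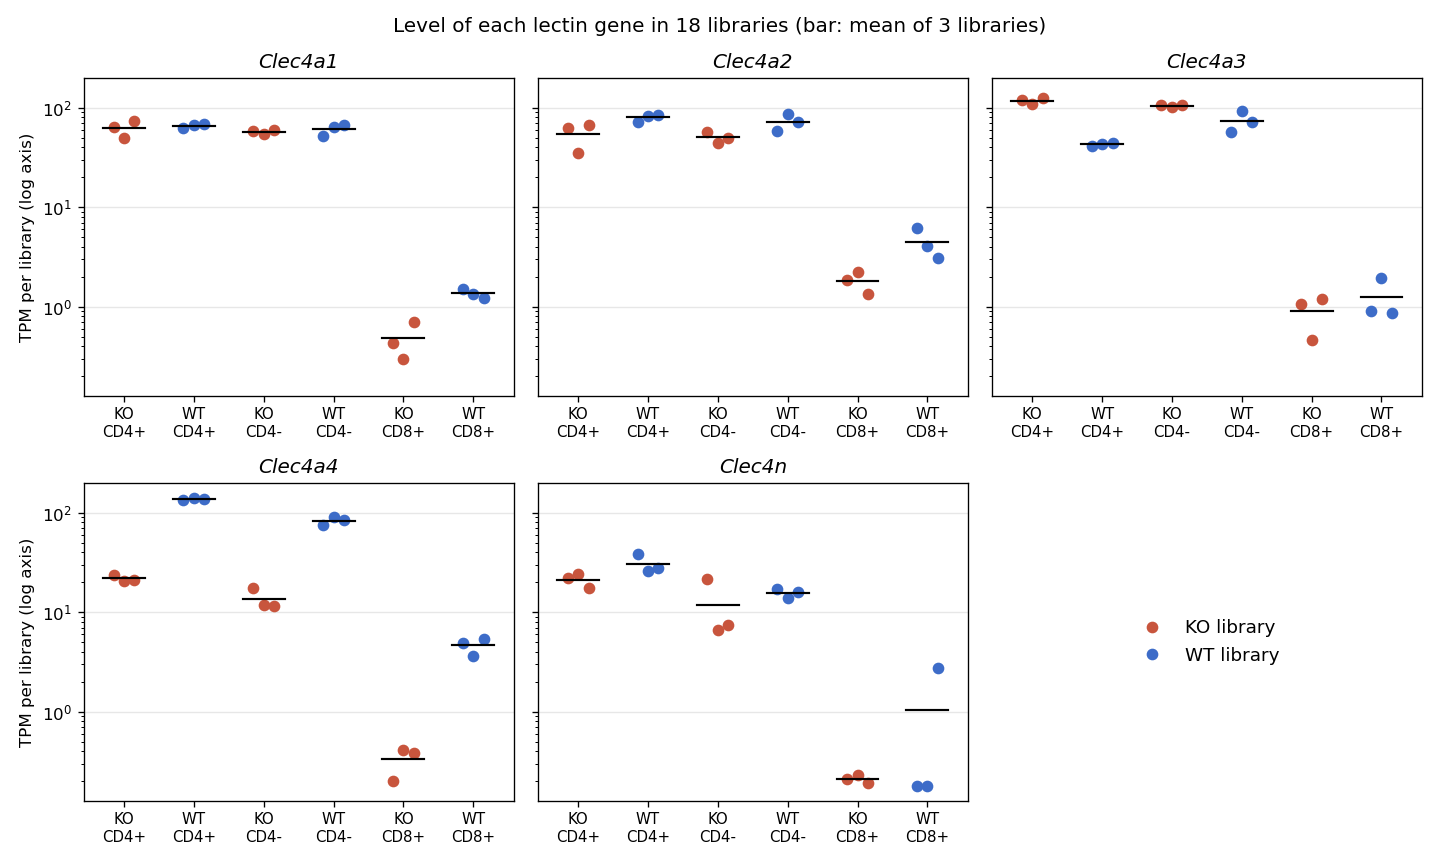
TPM of each of the 5 lectin genes in every library, on a log axis, with KO and WT groups side by side for CD4+, CD4- and CD8+ cells and a bar at the mean of 3 libraries. Clec4a4 is lower in KO than in WT in all 3 populations, Clec4a3 is higher in KO CD4+ and KO CD4- cells, and all 5 genes are lowest in CD8+ cells.

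Markers of NK and T cells moved with the KO comparison in CD4- cells. All 5 NK cell markers fell there (median log2 -3.09), to a sum of 6.10 to 16.9 TPM in KO, against 86.5 to 156.8 TPM in WT libraries. All 5 T cell markers fell as well (median log2 -2.43), to a sum of 6.19 to 24.0 TPM in KO, against 90.0 to 167.3 TPM in WT libraries. Their part in the fall of Clec4a4 and the rise of Clec4a3 in CD4- cells was not tested.

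In counts, 2 of the 5 genes changed in KO CD4+ cells, where 35.1% of all genes tested did. One rose and 1 fell, against 18.5% and 16.6% of all genes, and the median log2 value of the 5 was -0.27 against 0.02 over all genes tested. In CD4- cells 2 of 5 changed, against 25.9% of all genes, again 1 higher and 1 lower (14.6% and 11.3% of all genes), with medians of -0.10 and 0.02. In CD8+ cells 3 of 5 changed, against 15.7% of all genes. All 3 fell (8.68% of all genes fell and 7.01% rose), and the medians were -1.09 and 0.00. Among the 5 genes Clec4a4 was the one that fell in each population.

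**Figure D2:**
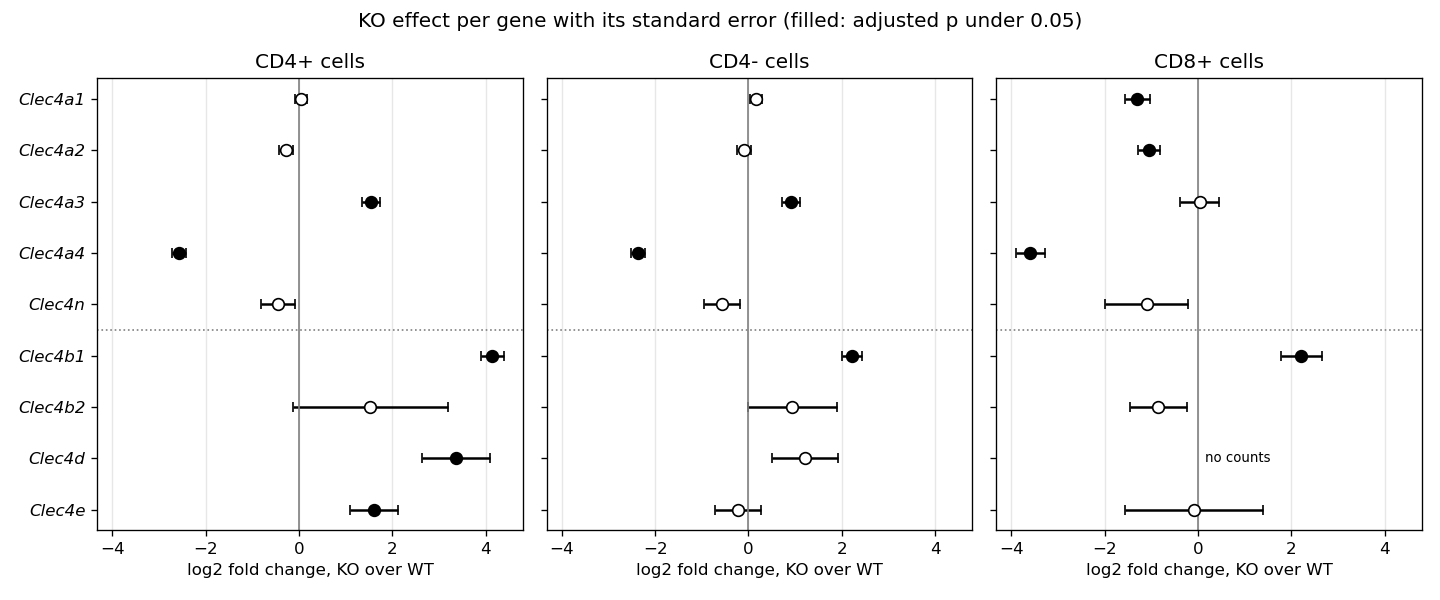
Log2 fold change of KO over WT with its standard error in CD4+, CD4- and CD8+ cells for the 5 lectin genes (above the dotted line) and the other 4 genes of the cluster (below it), with filled points where the adjusted p is under 0.05. Clec4a4 lies between -3.59 and -2.36 in the 3 populations, while Clec4b1 lies between 2.21 and 4.14.

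The genes between and beside the members did not move as a block. Clec4b1, which encodes DCAR, a receptor of the same family that pairs with FcRγ, rose in all 3 populations. KO CD4+ libraries held 85.2, 70.6 and 89.1 TPM, against 4.35, 5.41 and 4.74 TPM in WT CD4+ libraries (log2 4.14 ± 0.25, edgeR adjusted p 2.22e-09). The log2 value was 2.21 ± 0.22 in CD4- cells (edgeR adjusted p 1.92e-06) and 2.22 ± 0.45 in CD8+ cells (edgeR adjusted p 0.00228). Of the 59-base windows of Clec4b1, 5.24% also occur in Clec4a2. Between the end of Clec4a4 and the start of Clec4b1 lie 25856 bases, so that the gene with the largest fall and the gene with the largest rise of the cluster in CD4+ cells are neighbours. Clec4d, which encodes MCL, and Clec4e, which encodes Mincle, a receptor for mycobacterial glycolipid, rose in CD4+ cells, where both stayed at or under 2.45 TPM (log2 3.36 ± 0.72, edgeR adjusted p 0.00283, and 1.61 ± 0.51, edgeR adjusted p 0.0208). Neither passed in CD4- cells. For Clec4e the CD4+ libraries overlapped in TPM, at 0.624 to 2.05 in KO and 0.518 to 1.10 in WT. In CPM they did not, at 1.71 to 3.93 in KO and 0.558 to 1.09 in WT. Clec4d had no estimated count in any CD8+ library, so no fold is given there. Clec4b2 was instead highest in CD8+ cells, at 0.941, 6.94 and 7.80 TPM in KO and 12.3, 5.36 and 14.3 TPM in WT libraries, and its KO effect passed in no population.

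**Figure D3:**
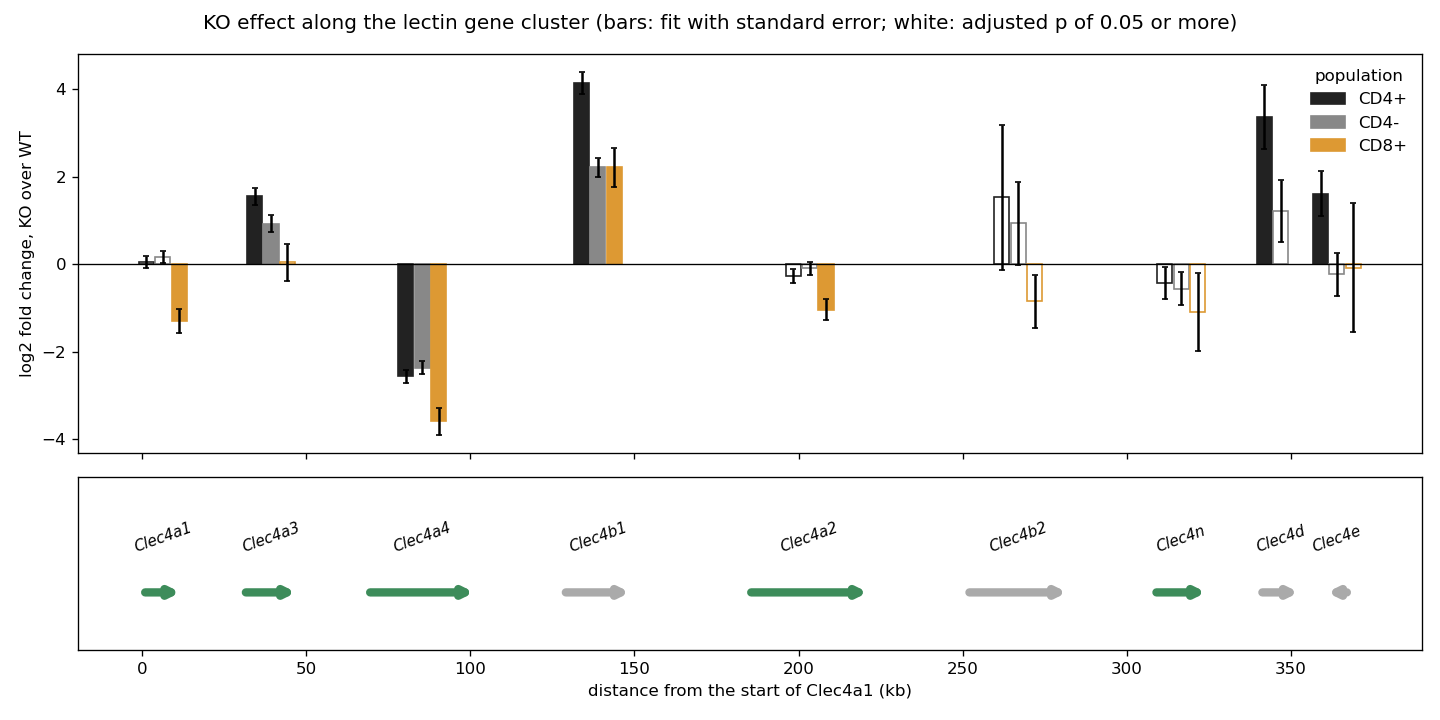
Log2 fold change of KO over WT with its standard error for the 9 genes of the cluster, placed at the middle of each gene by its distance from the start of Clec4a1 (kb), in CD4+, CD4- and CD8+ cells, with white bars where the adjusted p was 0.05 or more. Arrows below show gene bodies and direction, green for the 5 lectin genes and grey for the other 4. Clec4a4 at -2.56 and Clec4b1 at 4.14 in CD4+ cells are neighbours.

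Because TPM is per length, the members can be set beside one another within a library. The 5 genes summed to 277.8 ± 35.7 TPM in KO and 356.8 ± 5.92 TPM in WT CD4+ cells, to 237.9 ± 22.4 TPM in KO and 305.8 ± 45.3 TPM in WT CD4- cells, and to 3.75 ± 0.10 TPM in KO and 12.8 ± 1.35 TPM in WT CD8+ cells (SD, n = 3). Clec4a4 made up 7.95% ± 0.87 of the sum in KO CD4+ cells and 38.6% ± 0.76 in WT CD4+ cells (SD, n = 3). Clec4a3 made up 42.6% ± 2.64 in KO and 12.0% ± 0.29 in WT CD4+ cells (SD, n = 3). The leading gene was thus Clec4a3 in KO CD4+ cells and Clec4a4 in WT CD4+ cells. In CD4- cells Clec4a4 made up 5.67% ± 0.97 in KO and 27.3% ± 1.46 in WT, and Clec4a3 44.2% ± 2.91 in KO and 23.9% ± 2.47 in WT (SD, n = 3). The share of Clec4a4 was 8.94% ± 3.15 in KO and 36.5% ± 3.93 in WT CD8+ cells (SD, n = 3).

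**Figure D4:**
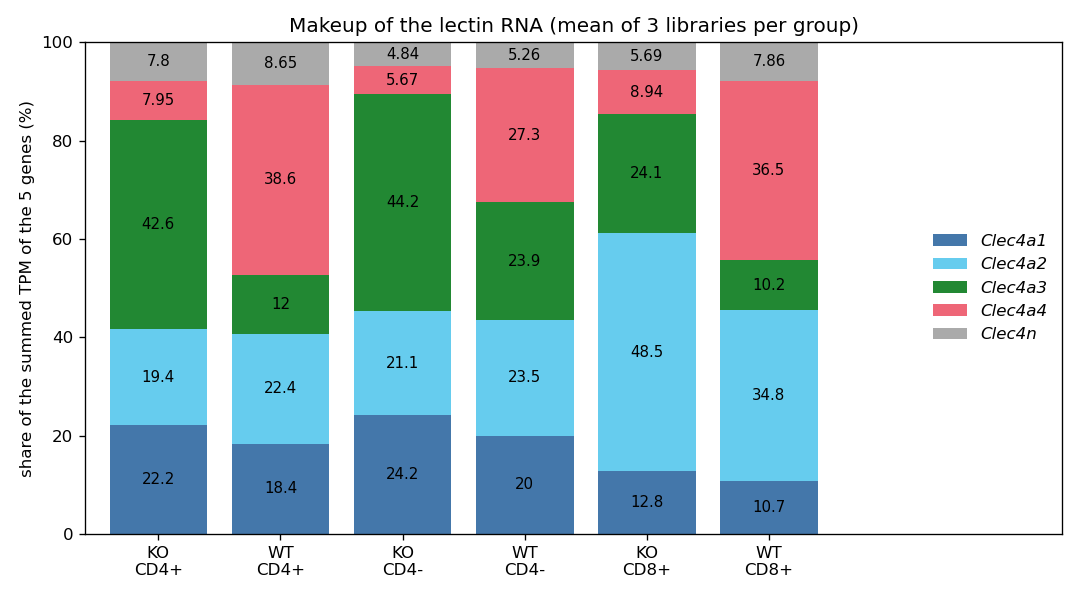
Share of the summed TPM of the 5 lectin genes (percent, mean of 3 libraries) taken by each gene in the 6 groups, with KO left of WT in each population. Clec4a4 takes 7.95% in KO CD4+ and 38.6% in WT CD4+ cells, and Clec4a3 takes 42.6% in KO CD4+ and 12.0% in WT CD4+ cells.

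The TPM of Clec4a2, Clec4n and Clec4a3 depends on short transcripts. In WT CD4+ cells 55.8% of the TPM of Clec4a2 was assigned to an incomplete transcript model of 343 bases, and 46.1% in KO CD4+ cells. In KO CD4+ library 2, the lowest for Clec4a2, this transcript held 11.1 TPM, against 30.3 and 39.2 TPM in the other KO CD4+ libraries. For Clec4n the 362-base and 363-base transcripts Clec4n-204 and Clec4n-206 held 40.5% and 28.8% of the TPM in KO CD4+ cells, and 32.4% and 34.99% in WT CD4+ cells. The full-length transcript Clec4n-201 was listed at 0 in 1 library of each of these groups. For Clec4a3 a 417-base transcript held 36.9% of the TPM in KO and 37.1% in WT CD4+ cells, and 35.6% in KO and 45.7% in WT CD4- cells. Per kb of the longest transcript, Clec4a3 was at 98.97 CPM in KO and 52.4 CPM in WT CD4- cells. Clec4a1 and Clec4a4 have 1 transcript each. Divided by the longest transcript of each gene instead, WT CD4+ cells held 160.1 CPM per kb of Clec4a4, 94.1 of Clec4a1, 39.0 of Clec4a3, 24.0 of Clec4a2 and 15.2 of Clec4n. In KO CD4+ cells the order was Clec4a3 (114.6 CPM per kb), Clec4a1 (97.2), Clec4a4 (27.1), Clec4a2 (19.9) and Clec4n (11.2). Clec4a2 thus stood above Clec4a1 and Clec4a3 by TPM in WT CD4+ cells and below both by this measure. The leading gene was the same by both measures in each genotype. The longest transcript of Clec4a2 has 2481 bases. In WT CD4+ cells it held 2.46% of the TPM and 10.5% of the estimated counts of Clec4a2. The place of Clec4a2 per kb therefore rests on a length to which few of its reads were assigned.

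All 5 genes were cDC2 genes in both genotypes. CD4+ cells exceeded CD8+ cells for 5 of 5 genes in KO, where 25.7% of all genes tested were called in that direction, and for 5 of 5 in WT (22.6%). CD4- cells exceeded CD8+ cells for 5 of 5 genes in KO (24.3%) and in WT (21.9%). These comparisons of a genotype share their CD8+ libraries. Between CD4+ and CD8+ cells the largest difference was that of Clec4a1, at log2 6.95 ± 0.21 between KO CD4+ and KO CD8+ cells (edgeR adjusted p 3.29e-13) and 5.60 ± 0.18 between WT CD4+ and WT CD8+ cells (edgeR adjusted p 1.14e-12). The smallest between these populations was that of Clec4a2 (log2 4.62 ± 0.20 in KO, edgeR adjusted p 1.34e-11, and 3.85 ± 0.19 in WT, edgeR adjusted p 6.92e-11). Between CD4- and CD8+ cells Clec4a1 led in KO (log2 6.77 ± 0.21, edgeR adjusted p 6.44e-13) and Clec4a3 in WT (5.53 ± 0.28, edgeR adjusted p 3.39e-10). Between CD4+ and CD4- cells Clec4a4 alone of the 5 was called in the fit reported. It was higher in CD4+ cells by log2 0.73 ± 0.15 in KO (edgeR adjusted p 0.00647) and 0.93 ± 0.14 in WT (edgeR adjusted p 0.000171). Of all genes tested, 3.16% were called higher in CD4+ cells in KO and 7.12% in WT. The KO call of Clec4a4 was lost in a fit on the compared groups only (adjusted p 0.0729) and in limma on log2(TPM + 0.1) (adjusted p 0.0737). In WT, all members but Clec4a2 had an unadjusted edgeR p under 0.05. Clec4n was called higher in WT CD4+ cells in a fit on the compared groups only (log2 0.84, edgeR adjusted p 0.00514). Clec4a3 was called lower in WT CD4+ cells in limma on log2(TPM + 1) (-0.74, adjusted p 0.0233). Without KO CD4- library 1, Clec4n was called higher in KO CD4+ cells (1.76, edgeR adjusted p 0.00473). WT CD4- libraries also carried NK cell markers (86.5 to 156.8 TPM summed, against 0.980 to 1.55 TPM in WT CD4+ libraries) and T cell markers (90.0 to 167.3 TPM, against 1.87 to 4.17 TPM), and their part in the WT difference was not tested. KO CD4- libraries held 6.10 to 16.9 TPM of NK cell markers, against 0.725 to 0.944 TPM in KO CD4+ libraries.

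Whether the KO effect itself differed between populations was tested by the interaction. Between CD4+ and CD8+ cells it differed for 2 of 5 genes, both with the more positive effect in CD4+ cells (12.6% of all genes tested). These were Clec4a1 (log2 1.35 ± 0.30, edgeR adjusted p 0.0036) and Clec4a3 (1.51 ± 0.47, edgeR adjusted p 0.0277). Between CD4- and CD8+ cells it differed for 3 of 5 genes, again in the positive direction (8.24% of all genes tested). Clec4a1 was at 1.47 ± 0.30 (edgeR adjusted p 0.00359), Clec4a2 at 0.94 ± 0.28 (edgeR adjusted p 0.0366) and Clec4a4 at 1.23 ± 0.39 (edgeR adjusted p 0.0464). Of these, the Clec4a4 value took the opposite sign in limma on log2(TPM + 1), at -0.46 (adjusted p 0.226), and both calls were lost without any single KO CD8+ library, without WT CD8+ library 1 or 3, without WT CD4- library 1 or 3, or without KO CD4- library 1. With the replicate number as a block they were lost too (edgeR adjusted p 0.0535 for Clec4a2 and 0.055 for Clec4a4). With a block by genotype and number both were called, and so were Clec4a2 and Clec4a4 between CD4+ and CD8+ cells (edgeR adjusted p 0.0444 and 0.0443). The call of Clec4a2 was also lost without KO CD4- library 3, and that of Clec4a4 without WT CD4- library 2. The call of Clec4a3 was lost without WT CD8+ library 1 (1.55, edgeR adjusted p 0.0553) or library 2 (1.38, edgeR adjusted p 0.0936). Those of Clec4a1 were lost in limma on log2(TPM + 1) (adjusted p 0.0747 and 0.0842). Between CD4+ and CD4- cells the KO effect differed for 0 of 5 genes by edgeR, DESeq2 and limma, with 1 of 5, Clec4a3, at an unadjusted p under 0.05, and for 3.76% of all genes tested by edgeR.

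In CD8+ libraries 3 of the 5 lectin genes fell, and so did 4 of 6 markers of cDC2 (Sirpa, Irf4, Esam and Cd209a). Clec4a3, Clec4n, Cd4 and Itgam did not pass. The 6 cDC2 markers summed to 17.7 to 33.0 TPM in KO and 73.4 to 137.8 TPM in WT CD8+ libraries. None of the 6 was at 0. Sirpa, a receptor typical of cDC2, averaged 3.72 TPM in KO and 20.1 TPM in WT CD8+ cells (log2 -2.06 ± 0.19, edgeR adjusted p 1.1e-06). Sirpa in CD8+ cells amounted to 1.28% of its CD4+ level in KO and 6.02% in WT. The same share was 0.777% in KO and 2.08% in WT for Clec4a1, 3.29% in KO and 5.56% in WT for Clec4a2, and 1.53% in KO and 3.40% in WT for Clec4a4. A share of this kind also moves with its CD4+ level, which was itself lower in KO for Clec4a4 and higher in KO for Clec4a3. For Clec4a3 it was 0.773% in KO and 2.88% in WT, while CD8+ libraries overlapped, at 0.418 to 2.08 CPM in KO and 1.28 to 1.72 CPM in WT. Cd4 stood at 1.13% of its CD4+ level in KO and 1.12% in WT. The part of cDC2 RNA in the falls of Clec4a1, Clec4a2 and Clec4a4 in CD8+ cells was not tested.

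**Figure D5:**
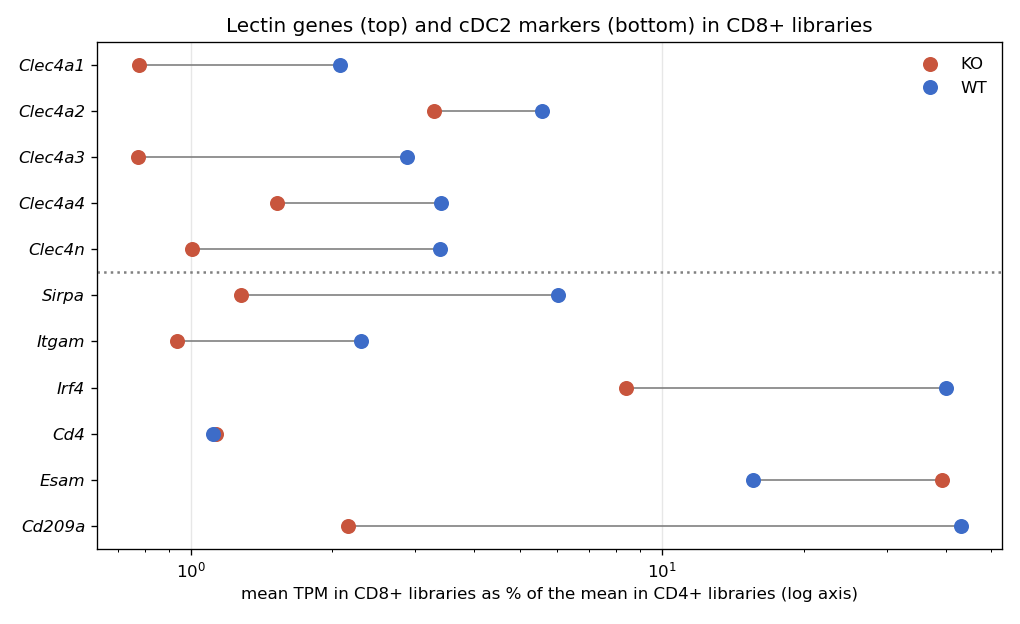
Mean TPM in CD8+ libraries as a percent of the mean in CD4+ libraries of the same genotype (log axis, KO and WT points joined) for the 5 lectin genes above the dotted line and 6 cDC2 markers below it. The percent is a ratio of both levels: that of Clec4a3 is lower in KO (0.773%, against 2.88% in WT) beside a rise in CD4+ cells and a log2 value of 0.04 in CD8+ cells. Cd4 is at 1.13% in KO and 1.12% in WT. Esam has the higher percent in KO (39.3%, against 15.6% in WT) but the lower mean in CD8+ libraries. That mean is 3.61 TPM in KO and 25.4 TPM in WT, so the CD4+ level of Esam is lower in KO as well.

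Monocyte markers were higher in the KO cDC2 in which Clec4a3 and Clec4b1 rose. Of 9 markers tested, 8 rose in CD4+ cells and 7 in CD4- cells, and none fell. In CD8+ cells 2 rose (Lyz2 and Ccr2), 2 fell (Csf1r and Ms4a4c) and 5 did not pass, with a median log2 value of -0.36. All 10 listed markers summed to 4875 to 6671 TPM in KO and 1166 to 1329 TPM in WT CD4+ libraries, to 3599 to 4765 TPM in KO and 1219 to 1473 TPM in WT CD4- libraries, and to 524.1 to 653.0 TPM in KO and 214.7 to 287.2 TPM in WT CD8+ libraries. Vcan was at 0 in WT CD4+ libraries and in CD8+ libraries of both genotypes. Most of the sum in CD4+ cells was Lyz2, lysozyme (5112 ± 849 TPM in KO and 868.8 ± 91.4 TPM in WT CD4+ cells, SD, n = 3). The 11 red pulp macrophage markers summed to 356.4 to 423.3 TPM in KO and 281.2 to 304.0 TPM in WT CD4+ libraries, and to overlapping ranges in CD4- libraries. Of these 11, 8 rose and 1 fell in CD4+ cells (median log2 1.94), where 18.5% and 16.6% of all genes did. In CD4- cells 3 rose and 1 fell (median 0.45), where 14.6% and 11.3% of all genes did. In CD8+ cells 0 rose and 3 fell, where 7.01% and 8.68% of all genes did. The part of monocytes and macrophages in the lectin results was not tested.

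Across the 18 libraries, Clec4a1 and Clec4a2 had the most similar pattern among the members (Pearson's r of log2 CPM 0.993), and Clec4a3 and Clec4a4 the least (0.756). These are descriptions over points that share populations and genotypes. Among 10521 genes with a mean of at least 5 CPM in some group, the closest to Clec4a1 were Sirpb1a (0.995), Adgre4 (0.994) and Clec4a2 (0.993). Closest to Clec4a2 were Ms4a4c (0.993), Clec4a1 (0.993) and Cd300ld (0.991). Closest to Clec4a3 were Itgam (0.992), Tlr8 (0.987) and Apobec1 (0.986), and closest to Clec4a4 were Tbc1d16 (0.992), Rnf149 (0.990) and Chst10 (0.988). Closest to Clec4n were Tnfsf14 (0.982), Bpifb4 (0.978) and Coq8a (0.977).

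The promoters of Clec4a1 and Clec4a3 are shown as the 250 bases before the start in RefSeq on GRCm38.p6. In KO cDC2 Clec4a3 was called higher in the fit reported, while Clec4a1 did not pass. The KO effects of these genes were not tested against each other. The searched window ran on for 50 bases after the start. Motifs searched on both strands were GAGGAA for PU.1, GGAANNGAA for PU.1 with IRF, GTGGGAA for RBPJ and TGTGGT for RUNX, and matches are in capitals.
Clec4a1, chr6:122921598-122921847, plus strand: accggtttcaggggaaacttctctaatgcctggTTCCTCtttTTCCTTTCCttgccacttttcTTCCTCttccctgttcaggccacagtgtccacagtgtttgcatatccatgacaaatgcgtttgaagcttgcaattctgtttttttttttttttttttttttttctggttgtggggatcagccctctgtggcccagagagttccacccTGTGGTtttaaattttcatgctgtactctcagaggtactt
Clec4a3, chr6:122952265-122952514, plus strand: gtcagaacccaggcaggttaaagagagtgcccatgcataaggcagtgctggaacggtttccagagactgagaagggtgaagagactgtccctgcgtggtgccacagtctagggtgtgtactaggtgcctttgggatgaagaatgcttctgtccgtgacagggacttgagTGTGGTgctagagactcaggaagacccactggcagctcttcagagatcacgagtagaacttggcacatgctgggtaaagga
Clec4a1 held 2 PU.1 matches at -217 and -187 and 1 match for PU.1 with IRF at -208, all on the minus strand and not overlapping, and 1 RUNX match at -40. Clec4a3 held 1 RUNX match at -81 in the window shown. A second listed start of Clec4a3 has a PU.1 match at -50. Clec4a2 held none of the 4 motifs in its window. The RBPJ letters were found in no window of Clec4a1, Clec4a2 or Clec4a3. Promoters of Clec4a4 and Clec4n were not among those searched. Clec4b1, which is not a member, held an RBPJ match at -61 on the minus strand. Of 32851 promoters in the table, 28.3% held the PU.1 letters, 8.2% those of PU.1 with IRF, 6.4% those of RBPJ and 16.8% those of RUNX. These matches are descriptions of letters, not of binding.

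The signalling genes that Dectin-2 and related activating receptors use changed in both directions. Of 14 such genes, 3 were higher and 5 lower in KO CD4+ cells, and 6 did not pass (median log2 -0.06), where 18.5% of all genes were higher and 16.6% lower. The counts were 3 higher and 2 lower in CD4- cells (median -0.01), where 14.6% and 11.3% of all genes were. In CD8+ cells 0 were higher and 5 lower (median -0.20), where 7.01% and 8.68% of all genes were. The genes that did not pass numbered 9 in CD4- cells and 9 in CD8+ cells, not all of them the same. Fcer1g, the FcRγ chain, rose in CD4+ cells (log2 0.49 ± 0.10, edgeR adjusted p 0.00138) and CD4- cells (0.38 ± 0.10, edgeR adjusted p 0.0133) and fell in CD8+ cells (-0.64 ± 0.11, edgeR adjusted p 0.000557). Malt1, the protease partner of Card9 and Bcl10, fell in all 3 (-1.39 ± 0.11, -0.94 ± 0.11 and -1.19 ± 0.11, edgeR adjusted p 3.64e-08, 7.88e-06 and 1.44e-06 in CD4+, CD4- and CD8+ cells). Prkcd, the kinase that links Syk to Card9, rose in CD4+ cells (1.04 ± 0.11, edgeR adjusted p 1.35e-06) and CD4- cells (0.66 ± 0.11, edgeR adjusted p 0.000283). Rel, an NF-κB subunit, fell in CD8+ cells (-0.88 ± 0.23, edgeR adjusted p 0.0153).

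Among 6 genes of inhibitory signalling, those for the ITIM-binding phosphatases SHP-1 (Ptpn6) and SHP-2 (Ptpn11) did not pass in any population. Of the 6, 1 rose and 1 fell in CD4+ cells, 1 rose in CD4- cells and 1 fell in CD8+ cells, and the others did not pass. The shares of all genes were those given above, 18.5% and 16.6%, 14.6% and 11.3%, and 7.01% and 8.68% higher and lower in CD4+, CD4- and CD8+ cells. Dok2, an adaptor that restrains kinase signalling, rose in CD4+ cells, to 66.1, 68.6 and 71.5 TPM in KO libraries, against 1.66, 1.69 and 0.882 TPM in WT libraries (log2 6.66 ± 0.45, edgeR adjusted p 8.68e-09), while Csk, a kinase that restrains Src-family kinases, fell there (-0.39 ± 0.08, edgeR adjusted p 0.000881). Dok1 rose in CD4- cells (0.37 ± 0.10, edgeR adjusted p 0.0128) and fell in CD8+ cells (-0.51 ± 0.10, edgeR adjusted p 0.00199). Of 9 cytokine and mediator genes that these receptors induce, 6 passed the low-count filter. Of these 6, 2 rose and 1 fell in CD4+ cells, beside 18.5% and 16.6% of all genes. In CD4- cells 2 rose and 1 fell, beside 14.6% and 11.3% of all genes. In CD8+ cells 3 fell, beside 8.68% of all genes that fell there. Il12b, a chain of IL-12 and IL-23, fell in all 3 (-1.61 ± 0.31, -0.97 ± 0.30 and -1.46 ± 0.25, edgeR adjusted p 0.000601, 0.0253 and 0.000579). Il6 rose in CD4+ cells (1.58 ± 0.45, edgeR adjusted p 0.0104), and the chemokine gene Cxcl2 rose in CD4+ cells (1.54 ± 0.51, edgeR adjusted p 0.0259) and CD4- cells (1.74 ± 0.58, edgeR adjusted p 0.0344). Tnf rose in CD4- cells (1.00 ± 0.24, edgeR adjusted p 0.00462) and fell in CD8+ cells (-1.01 ± 0.28, edgeR adjusted p 0.0226), and Ptgs2, the prostaglandin enzyme COX-2, fell in CD8+ cells (-1.63 ± 0.24, edgeR adjusted p 0.000154).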

How the data were processed

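RNA of 18 libraries of sorted splenic cDC was sequenced as 59-base single-end reads of poly(A) RNA, per the labels. The authors deposited TPM and estimated counts per transcript. FastQC 0.11.8, Salmon 0.14.1 and GRCm38 are named per the submitters' processing notes, and the strand setting is not given in the sources used here. Estimated counts covered 117135 transcripts and TPM 84086. Gene names came from the TPM table or from GENCODE M21, and 851 counted transcripts matched neither and were set aside, with no more than 0.16% of the counts in any library. Transcripts were summed to 35824 genes, and summed estimated counts were rounded. Library totals ran between 12358884 and 19557469, which limits genes with few counts to wide errors.

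Genes were kept by filterByExpr (13381 genes), scaled by TMM and tested with edgeR 4.0.16 (R 4.3.3) by its quasi-likelihood F test, with 1 fit over the 6 groups and Benjamini-Hochberg adjustment over all genes tested. A call is an adjusted p under 0.05. Alternatives used DESeq2 1.42.0, limma 3.58.1 on log2(TPM + pseudocount), other filters and scalings, smaller fits, replicate blocks and leaving out each library. The code was tested on simulated data. The members and gene lists were chosen with earlier results of these data known. All members are named, as are the 3 genes with the most similar pattern for each and the other genes of the cluster and, per comparison, up to 3 called genes of each pathway list with the largest change. Fcer1g and the phosphatase genes were named in addition, after their values were seen.

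Coding stretches, their tripeptides and motif patterns were read from the GENCODE M21 annotation, and promoters from RefSeq. Promoters of Clec4a4 and Clec4n were not used here. Whether libraries stem from different mice is not in the labels, and p-values reflect library-to-library spread, which may be technical. Chi-square values per gene between same-group libraries were 9.43 to 32.4, so no pair was taken as 1 library. Same-numbered libraries deviated together between KO CD4- and KO CD8+ cells (correlations 0.221 to 0.262) and between KO CD4+ and KO CD8+ cells (0.148 to 0.181). A block changed no member's call in those comparisons, but did in interactions with CD8+ cells. In the other pairs of groups of 1 genotype the correlations were positive too. They were 0.0575 to 0.212 between KO CD4+ and KO CD4- cells, and 0.0874 to 0.201 between WT CD4+ and WT CD4- cells. Against WT CD8+ cells they were 0.0544 to 0.149 for WT CD4+ and 0.0796 to 0.174 for WT CD4- cells. Between KO and WT groups some were negative, down to -0.0981 between KO CD4- and WT CD8+ cells.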

Additional observations from a re-analysis of the deposited data

Results flagged for a closer look

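A difference of the KO effect between populations, tested as an interaction with edgeR, was found for the lectin genes named here and for Clec4b1. Of all genes tested, 12.6% had a more positive effect in CD4+ and 8.24% in CD4- than in CD8+ cells. The effect on Clec4a1 was more positive by log2 1.35 in CD4+ than in CD8+ cells and by 1.47 in CD4- than in CD8+ cells. That on Clec4a3 was more positive by 1.51 in CD4+ than in CD8+ cells. The call of Clec4a3 was lost without WT CD8+ library 1 or 2, and both calls of Clec4a1 in limma on log2(TPM + 1). The effects on Clec4a2 and Clec4a4 were more positive in CD4- than in CD8+ cells, by 0.94 and 1.23. Their calls were lost with the replicate number as a block and on leaving out most single libraries. Clec4a4 turned to -0.46 in limma on log2(TPM + 1). For Clec4b1 the rise was larger in CD4+ cells, by 1.93 against CD4- cells and by 1.92 against CD8+ cells. In CD8+ cells 4 of 6 cDC2 markers fell, and their part was not tested.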

How the results depend on the processing

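The falls of Clec4a4 in all 3 populations, of Clec4a1 and Clec4a2 in CD8+ cells, and the rise of Clec4a3 in CD4+ cells kept their direction and call under every alternative run, as did the 5 of 5 members above CD8+ cells. CD8+ values rest on few counts. The cause of the changes below was not tested.

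In limma on log2(TPM + 1), with or without the filter on low TPM, Clec4a1 turned to -0.098 in CD4+ and -0.079 in CD4- cells and Clec4a3 to -0.22 in CD8+ cells. The interactions of Clec4a4 turned to -0.52 (CD4+ minus CD8+) and -0.46 (CD4- minus CD8+), and that of Clec4n to -0.033 (CD4- minus CD8+). On log2(TPM + 0.1), Clec4a1 was at -0.099 in CD4+ and -0.081 in CD4- cells and Clec4a3 at -0.40. Leaving out single libraries, the KO effect on Clec4a1 in CD4+ cells ran between -0.094 and 0.21, that on Clec4a3 in CD8+ cells between -0.27 and 0.46, and Clec4a2 between KO CD4+ and KO CD4- cells between -0.037 and 0.28. The CD4+ minus CD4- interaction ran between -0.26 and 0.047 for Clec4a1, -0.32 and 0.038 for Clec4a4, and -0.21 and 0.89 for Clec4n. For Clec4n the CD4+ minus CD8+ interaction ran between -0.37 and 1.09 and the CD4- minus CD8+ interaction between -0.49 and 0.97.

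Of all genes, limma on log2(TPM + 1), log2(TPM + 0.1) and log2(TPM + 1) without the filter called 3117, 3101 and 2999 for KO vs WT in CD4+ cells, against 4692 in the fit reported. It called 4374, 4487 and 4499 for CD4+ vs CD8+ in KO (6801 reported), 4017, 4063 and 4029 for CD4+ vs CD8+ in WT (6106), 3898, 4020 and 3863 for CD4- vs CD8+ in KO (6240), and 468, 445 and 449 for CD4+ vs CD4- in KO (1064). For CD4+ vs CD4- in WT it called 1397 and 1334 with the filter (2241), and for KO vs WT in CD8+ cells 1266 without it (2099). The CD4+ minus CD8+ interaction gave 1434, 1440 and 1350 (2962), the CD4- minus CD8+ interaction 981, 803 and 960 (1761), and the CD4+ minus CD4- interaction 266 and 163 with the filter (503). Of the members, all 3 called 1 for KO vs WT in CD4- cells. Both fits on log2(TPM + 1) called 2 for CD4+ vs CD4- in WT, 1 for the CD4+ minus CD8+ and 0 for the CD4- minus CD8+ interaction. The fit on log2(TPM + 0.1) called 0 for CD4+ vs CD4- in KO and 1 for the CD4- minus CD8+ interaction.

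A fit on the compared groups only called 628 genes and 0 members for CD4+ vs CD4- in KO, and 2 members in WT. Leaving out single libraries gave 671 to 959 genes and 1 to 2 members for CD4+ vs CD4- in KO, 309 to 542 genes for the CD4+ minus CD4- interaction, and 1 to 3 members for each of the other interactions. With the replicate number as a block, 1 member was called in the CD4- minus CD8+ interaction, against 3 without it. A replicate block by genotype and number, chosen after seeing the data, called 3 members for CD4+ vs CD4- in WT, 2 in KO, 4 for the CD4+ minus CD8+ interaction, and 850 genes for the CD4+ minus CD4- interaction. Other calls of members did not change in number under either block.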
